A study of Mus musculus with 2 samples.

Results

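The teneurins (Tenm1, Tenm2, Tenm3, Tenm4), the latrophilins (Adgrl1, Adgrl2, Adgrl3) and the FLRT genes (Flrt1, Flrt2, Flrt3) were read in total RNA from the hippocampus of 10-day-old mice. They are 10 of the 55536 annotated genes, chosen by symbol and not by a limit on measured values, though with earlier results of these data known. They hold 105 annotated transcripts. Both libraries came from the same group, the hippocampus of B6CASTF1/J mice, a hybrid of the laboratory strain C57BL/6J and the wild-derived strain CAST/EiJ. Each was labelled as RNA from 3 males, so animals were pooled within a library and each library was 1 replicate. The labels name no transgene, mutation or treatment, number the libraries as separate biological replicates and call the tissue a layer of hippocampus. Libraries were made from 300 ng of RNA after reduction of ribosomal RNA. There was therefore no condition to contrast, and the measurements concern the balance among paralogues, the transcripts behind each gene's level and the difference between replicate 1 and replicate 2.

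Teneurins are large single-pass membrane proteins of axons and dendrites with epidermal growth factor-like repeats, a beta-propeller and a barrel-shaped extracellular part. They bind each other across cells and bind latrophilins, which are adhesion G protein-coupled receptors first found as receptors for the spider toxin alpha-latrotoxin. FLRT proteins, which carry leucine-rich repeats and a fibronectin domain, bind the olfactomedin domain of latrophilins and also bind Unc5 receptors. In the mouse hippocampus Tenm3 and Adgrl2 are known for matching CA1 axons to their subicular targets, and Adgrl2 and Adgrl3 for placing different excitatory inputs on CA1 dendrites.

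The libraries held 32035705 expected counts in replicate 1 and 29747193 in replicate 2, by a table of reads aligned to the mm10 genome with GENCODE M21 genes. A second table estimated transcripts from the unaligned reads, and is called FASTQ-based here. Marker genes of CA1, of CA2 and CA3, of dentate granule cells, of interneurons and of astrocytes were all detected at 1 TPM, a length-corrected abundance with the same total in each library, or more in both libraries, 4 of 4 in each list. The label of 1 library went against its sex-linked genes. Xist, which is transcribed from the inactive X chromosome of females, had 25 counts in replicate 1 and 30841 counts in replicate 2, and Ddx3y on the Y chromosome had 2164 counts in replicate 1 and 0 in replicate 2. Eif2s3y, Kdm5d and Uty had 764 to 1302 counts in replicate 1 and 0 to 2 counts in replicate 2. The sex-linked genes of replicate 2, a library labelled male, thus go against its label, and gene levels by alignment are given for each library on its own. A mean with its SD covers both libraries.

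All 10 genes were detected, and the latrophilins together stood above the teneurins and far above the FLRT genes. The 3 latrophilins summed to 298.6 TPM in replicate 1 and 295.8 TPM in replicate 2, a mean of 297.2 ± 1.99 (SD, n = 2). The 4 teneurins summed to 220.01 TPM in replicate 1 and 207.95 TPM in replicate 2, a mean of 213.98 ± 8.53 (SD, n = 2). The 3 FLRT genes summed to 51.01 TPM in replicate 1 and 49.59 TPM in replicate 2, a mean of 50.3 ± 1.00 (SD, n = 2). The gaps between families were many times the spread between the libraries, and the FASTQ-based table gave the same order at 414.8 ± 4.70, 283.9 ± 14.4 and 71.5 ± 2.30 TPM for latrophilins, teneurins and FLRT genes. TPM divides reads by transcript length, so that levels of different genes can be set side by side. Short transcript models held much of the TPM of some genes on few reads, as given below. Some orders within a family changed when only transcripts with a long coding sequence were summed. In bulk tissue a low level cannot be told apart from a high level in few cells.

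Among the teneurins, Tenm2 had the highest gene-level TPM in the alignment-based table and Tenm1 the lowest in both tables. Tenm2 (chr11:36006656-37235964, minus strand), a teneurin known as a high-affinity latrophilin ligand, stood at 82.05 TPM in replicate 1 and 80.7 TPM in replicate 2. Tenm4 (chr7:96171246-96911093, plus strand), known for a role in oligodendrocyte differentiation, stood at 58.36 TPM in replicate 1 and 57.3 TPM in replicate 2. Tenm3 (chr8:48227682-48843951, minus strand), the homophilic partner-matching teneurin of CA1 and subiculum, stood at 54.53 TPM in replicate 1 and 48.17 TPM in replicate 2. The libraries of these 3 genes did not overlap one another, with Tenm2 on top and Tenm4 next. Tenm1 (chrX:42527866-43429126, minus strand), the X-linked teneurin, stood at 25.07 TPM in replicate 1 and 21.78 TPM in replicate 2. Tenm2 made up 38.1% ± 1.07 of the teneurin TPM and Tenm1 10.9% ± 0.651 (SD, n = 2).

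The rank of Tenm2 depended on the table. In the FASTQ-based table Tenm3 led at 92.5 TPM in replicate 1 and 83.5 TPM in replicate 2, Tenm2 followed at 86.8 and 79.3 TPM, and Tenm4 stood at 79.3 and 79.0 TPM in the same order of libraries. The ranges of Tenm3 and Tenm2 overlapped there, although Tenm3 was above Tenm2 within each library. The log2 ratio of Tenm2 over Tenm3 was 0.67 ± 0.11 by alignment and -0.08 ± 0.01 by the FASTQ-based table (SD, n = 2). The median gene of the 15085 detected at 1 TPM had a log2 ratio of alignment over FASTQ of -0.60, 9 members lay between -0.78 (Tenm3) and -0.41 (Adgrl3), and Tenm2 lay at -0.03. Tenm3 was the only member below that median.

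Short transcript models carried much of the teneurins' gene-level TPM while receiving few reads. Tenm2-207, a noncoding processed transcript of 368 bases, received 109.43 expected counts in replicate 1 and 120.32 in replicate 2, or 1.00% and 1.29% of the Tenm2 counts. The same transcript made up 22.9% of Tenm2 TPM in replicate 1 and 27.5% in replicate 2. In the FASTQ-based table it received 7 counts in replicate 1 and 3 counts in replicate 2. Tenm4-209, a model of 704 bases with 303 coding bases, had 2.35% and 2.30% of the Tenm4 counts but 27.0% and 26.1% of its TPM in replicates 1 and 2, and its FASTQ-based share of TPM was 28.0% and 28.8%. Tenm1-204, a processed transcript of 1143 bases, had 4.35% and 4.02% of counts but 33.2% and 31.2% of TPM in the same order. A short model's effective length is small, so a few reads weigh heavily in TPM; whether those reads came from these short RNAs was not tested.

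When only transcripts whose coding sequence reached at least 70% of the gene's longest were summed, the teneurins fell in the same order in both tables. This limit was chosen after the values were seen. Tenm2 then stood at 47.6 TPM in replicate 1 and 43.3 TPM in replicate 2, Tenm3 at 43.4 and 38.6, Tenm4 at 29.8 and 29.0, and Tenm1 at 15.8 and 14.0 in the same order of libraries. The FASTQ-based sums were 68.8 ± 4.84 TPM for Tenm2, 57.0 ± 5.26 for Tenm3, 42.1 ± 0.947 for Tenm4 and 20.5 ± 1.80 for Tenm1 (SD, n = 2). Tenm2 was above Tenm3 within each library by both tables, and their alignment-based ranges still touched (38.6 to 43.4 TPM for Tenm3 and 43.3 to 47.6 TPM for Tenm2). On these long coding transcripts the log2 ratio of Tenm2 over Tenm3 by alignment was 0.15 and that of Tenm2 over Tenm4 was 0.63.

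**Figure D1:**
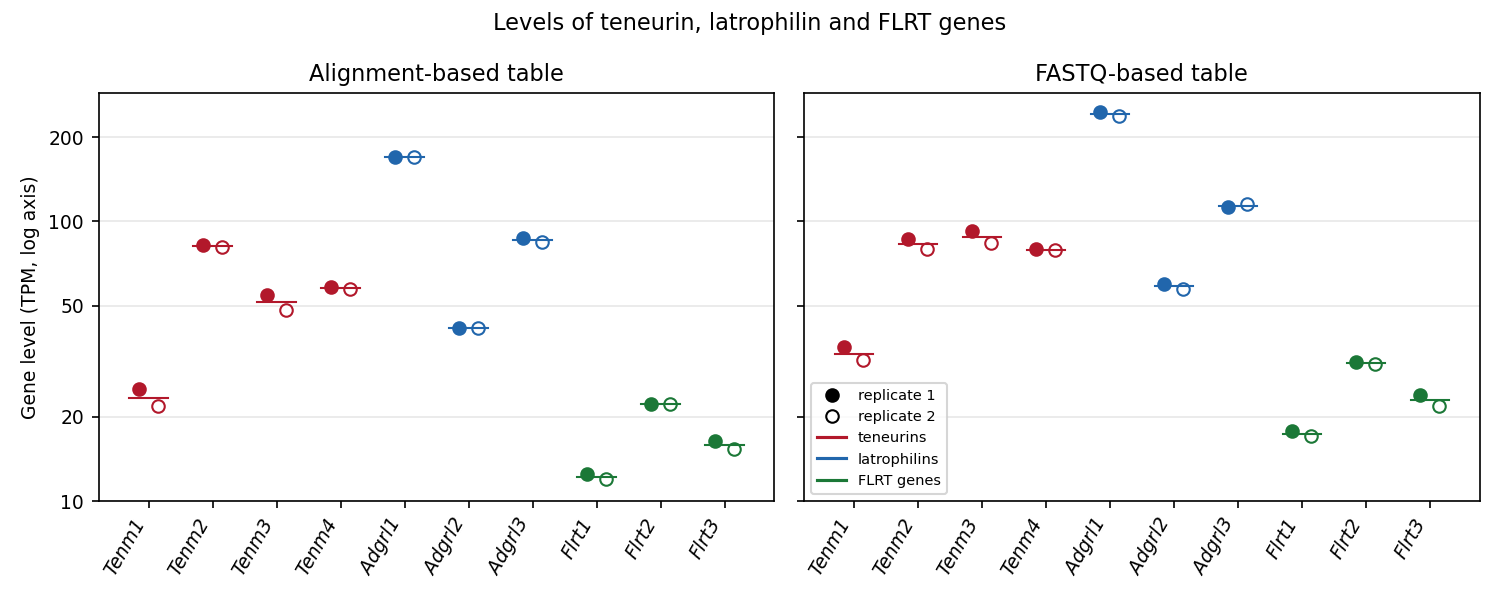
Gene levels in TPM on a log axis for each of the 10 genes, in the alignment-based table (left) and the FASTQ-based table (right); filled points are replicate 1, open points replicate 2 and lines their mean. Adgrl1 stands highest in both panels (169.8 and 242.5 TPM on average), Flrt1 lowest, and Tenm2 is above Tenm3 in the left panel only.

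Adgrl1 dominated the latrophilins. Adgrl1 (chr8:83900105-83941954, plus strand), the original alpha-latrotoxin receptor of this family, stood at 170.07 TPM in replicate 1 and 169.46 TPM in replicate 2, and made up 57.1% ± 0.237 of the latrophilin TPM (SD, n = 2). It was above 96.6% of the 13075 protein-coding genes detected at 1 TPM. Adgrl3 (chr5:81020138-81825133, plus strand), the latrophilin that pairs with FLRT3 at excitatory synapses in mice, stood at 87.12 TPM in replicate 1 and 84.63 TPM in replicate 2. Adgrl2 (chr3:148815583-148990555, minus strand), the receptor that repels Tenm3-positive axons in the mouse hippocampus, stood at 41.41 TPM in replicate 1 and 41.7 TPM in replicate 2. The 3 genes did not overlap, and the FASTQ-based table kept their order at 242.5 ± 5.23, 113.8 ± 2.17 and 58.5 ± 1.64 TPM for Adgrl1, Adgrl3 and Adgrl2.

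The gap between Adgrl3 and Adgrl2 lay largely in transcripts with no long coding sequence. On long coding transcripts Adgrl3 stood at 29.6 TPM in replicate 1 and 27.4 TPM in replicate 2, against 23.3 and 22.8 TPM for Adgrl2. By the FASTQ-based table Adgrl3 stood at 32.1 TPM in replicate 1 and 32.6 TPM in replicate 2, below Adgrl2 at 34.8 and 34.1 TPM. The order of these latrophilins on long coding transcripts therefore differed between the tables. Adgrl1 kept 155.3 ± 2.07 TPM by alignment and 218.9 ± 2.45 TPM by the FASTQ-based table (SD, n = 2), and the log2 ratio of Adgrl1 over Adgrl3 was 2.45 on long coding transcripts by alignment, against 0.98 ± 0.03 on all transcripts.

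The FLRT genes were the lowest family and their order by TPM, Flrt2, Flrt3, Flrt1, was the same in both libraries and both tables. Flrt2 (chr12:95692226-95785215, plus strand), an Unc5d ligand that repels migrating neurons in the mouse cortex, stood at 22.16 TPM in replicate 1 and 22.29 TPM in replicate 2. Flrt3 (chr2:140650914-140671469, minus strand), the postsynaptic latrophilin ligand, stood at 16.35 TPM in replicate 1 and 15.34 TPM in replicate 2. Flrt1 (chr19:7092001-7105729, minus strand), the third of these ligands, stood at 12.5 TPM in replicate 1 and 11.96 TPM in replicate 2. The TPM ranges of the 3 genes did not overlap, and Flrt1 still stood above 41.9% of detected protein-coding genes. By expected counts, which are not divided by length, Flrt3 was below Flrt1, with a log2 ratio of -0.24 ± 0.006 (SD, n = 2). Across all members in the alignment-based table, the only neighbours in level whose libraries overlapped were Tenm1 and Flrt2.

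Several members share their position with other annotated genes. Of the 34 genes that overlap a member by position, 27 had fewer than 10 counts in both libraries. Flrt3 lies on the opposite strand within Macrod2, a mono-ADP-ribosylhydrolase gene with 1588 counts in replicate 1 and 1380 counts in replicate 2, and Flrt1 lies in the same way within Macrod1, which had 48 and 77 counts. Neither shares an exonic base with its host. Gm19744, on the opposite strand of Tenm3, shares 114 exonic bases with it and had 97 counts in replicate 1 and 66 in replicate 2. The other 4 lie on the member's own strand within Adgrl3 or Flrt2 and share no exonic base with it. Gm43594 and Gm43084 in Adgrl3 had 56 and 12 counts in replicate 1, against 68 and 8 in replicate 2. Gm48014 and Gm48015 in Flrt2 had 33 and 36 counts in replicate 1, against 26 and 23 in replicate 2. The labels describe stranded libraries but not how strand was used in counting, so reads of Tenm3 and Gm19744 in those bases cannot be told apart.

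The transcripts divided the genes into those carried by 1 model and those spread over many. The leading transcript held at least 50% of the gene's TPM for 6 of 10 members in each table, and 9 of 10 members had the same leading transcript in both. Flrt1 has a single annotated transcript, Flrt1-201. Flrt3-202 held 84.1% of Flrt3 TPM in replicate 1 and 87.2% in replicate 2, and Flrt3-201 14.7% and 12.8%. Flrt2-201, which starts 3.131 kb upstream of Flrt2-202 and has a coding sequence of the same 1980 bases, held 65.7% and 65.0% of Flrt2 TPM in replicates 1 and 2, and Flrt2-202 the remaining 34.3% and 35.0%. The FLRT genes thus had almost all of their TPM in complete coding transcripts.

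Adgrl1-207, a model of 8181 bases, held 76.5% of Adgrl1 TPM in each library and 69.8% and 71.4% in the FASTQ-based table. Tenm3-201 held 73.2% of Tenm3 TPM in replicate 1 and 73.5% in replicate 2, and Tenm2-202 held 57.7% and 53.5% of Tenm2 TPM. The FASTQ-based table turned this order round, with 56.1% and 55.4% for Tenm3-201 and 65.1% and 65.6% for Tenm2-202. By expected counts these transcripts held 89.6% (Tenm3-201) and 91.5% (Tenm2-202) of their gene in replicate 2. Among the remaining teneurin models, Tenm1-201 held 12.8% and 13.4% of Tenm1 TPM, Tenm2-204 10.4% and 11.1% of Tenm2 TPM, and Tenm3-207, of 763 bases, 9.56% and 6.83% of Tenm3 TPM in replicates 1 and 2, with 28.8% and 27.2% for Tenm3-207 in the FASTQ-based table. Tenm1-203 held 48.6% of Tenm1 TPM in replicate 1 and 50.9% in replicate 2, and 78.0% and 80.3% of its expected counts. Tenm4-203 held 43.5% and 42.5% of Tenm4 TPM, and 81.8% and 80.9% of its expected counts. By expected counts the leading transcript held at least 50% in 8 of 10 members, all but Adgrl2 and Adgrl3. The protein-coding transcripts of Tenm1 begin at 2 places 106.948 kb apart, and the downstream start, used by Tenm1-203 and Tenm1-202, held 79.6% of their TPM in replicate 1 and 79.2% in replicate 2. For Tenm2 the assignment to a start differed between the tables: transcripts starting 291.716 kb downstream of Tenm2-202 held 0.609% and 0.300% of coding TPM in replicates 1 and 2 by alignment, but 21.7% and 20.4% by the FASTQ-based table, where Tenm2-201 alone held 18.1% and 16.8% of all Tenm2 TPM.

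Adgrl2 and Adgrl3 had no dominant transcript. Adgrl2 has 20 annotated transcripts, and its leading one, Adgrl2-212, held 26.7% of TPM in replicate 1 and 22.7% in replicate 2. In the FASTQ-based table the same transcript held 20.9% in replicate 1 and 12.1% in replicate 2. The next Adgrl2 transcripts, Adgrl2-203 and the retained-intron model Adgrl2-211, held 18.5% and 10.8% in replicate 1 and 22.9% and 14.5% in replicate 2, with Adgrl2-203 at 6.11% and 0.913% in the FASTQ-based table. Adgrl2-220 held 10.7% and 20.3% in replicates 1 and 2 of the FASTQ-based table. Adgrl3 has 35 annotated transcripts, led by the retained-intron model Adgrl3-228 with 15.8% and 16.7% of TPM in replicates 1 and 2 and followed by another such model, Adgrl3-231, with 11.9% and 11.4%. Models that retain an intron held 39.8% of Adgrl3 TPM in each library, and protein-coding ones 39.7% and 39.5%. The reads were not split so evenly. By expected counts, retained-intron models held 28.1% and 28.5% of Adgrl3 in replicates 1 and 2, and protein-coding ones 59.9% and 57.8%. In the FASTQ-based table the retained-intron models held 46.1% and 46.6% of TPM, and protein-coding ones 28.6% and 28.3%. Adgrl3-223, a model annotated to nonsense-mediated decay, held 20.9% of TPM in each library there, against 5.62% and 6.49% by alignment. No other member had more than 30% of its TPM in retained-intron and nonsense-mediated decay models by either table. Total RNA includes unspliced nuclear RNA, and its part in these shares was not tested.

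Some transcripts of Adgrl2 and Adgrl3 were not resolved between libraries by alignment. Adgrl2-202 received 244.67 expected counts in replicate 1 and 0 in replicate 2, while Adgrl2-204 received 0 and 274.19. Adgrl3-218 received 486.08 expected counts in replicate 1 and 0.4 in replicate 2, while Adgrl3-207 received 0 counts in replicate 1 and 426.09 in replicate 2. The deposited posterior standard deviations in replicate 1 were 195.37 counts for Adgrl3-218 and 141.31 counts for Adgrl3-207. In the FASTQ-based table Adgrl3-207 received 744.1 and 630.1 counts in replicates 1 and 2, and Adgrl3-218 57.4 and 5.78. Adgrl2-202 received 216.9 and 125.6 counts there, and Adgrl2-204 2.24e-08 and 25.2. By alignment Adgrl3 as a whole had 6726 counts in replicate 1 and 6205 in replicate 2. Its models thus shifted by alignment while the gene's TPM was 87.12 in replicate 1 and 84.63 in replicate 2.

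**Figure D2:**
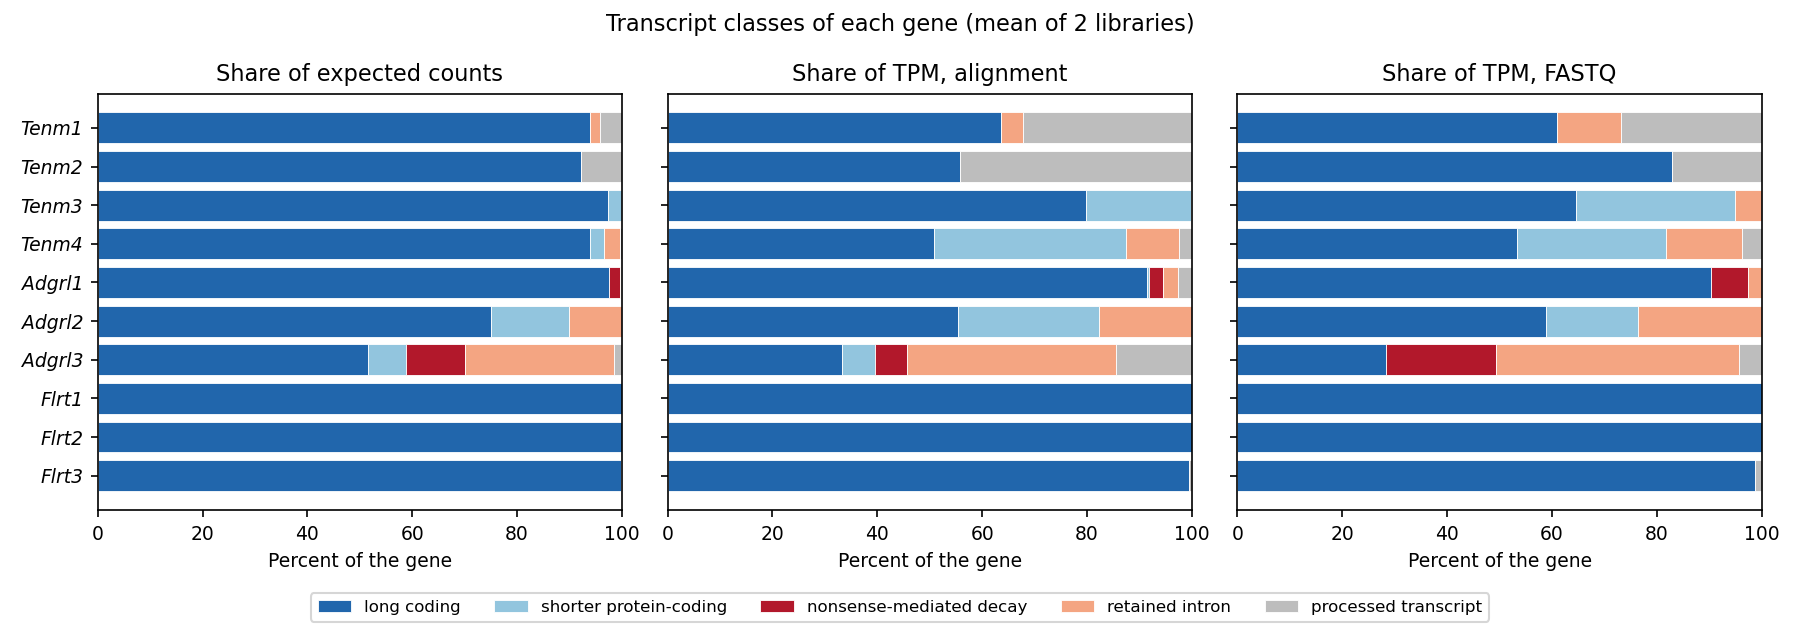
Percent of each gene held by each class of transcript, as the mean of 2 libraries: shares of expected counts (left), of TPM by alignment (middle) and of FASTQ-based TPM (right); long coding means a coding sequence of at least 70% of the gene's longest. Short teneurin models are thin in the left panel and wide in the middle one, and Adgrl3 has the smallest long coding part (33.2% of TPM by alignment).

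Some short coding exons of teneurins and latrophilins are known to change binding to partners, so sequences of such exons are shown with their inclusion. Inclusion is the TPM of transcripts that hold the exon as a percentage of the TPM of all transcripts that hold it or skip it. Among exons of at most 45 bases whose length keeps the reading frame, the members have 20, and 17 of them are skipped by some annotated transcript. Exon numbers count along the most abundant coding transcript that holds the exon. The first set is the short exon between the lectin and olfactomedin domains of the latrophilins, whose inclusion is known to weaken teneurin binding. It is shown from GENCODE M21 transcripts in 5′ to 3′ order, with the exon in capitals and 15 bases of the neighbouring exons in lower case.
Adgrl1 exon 5 (chr8:83926262-83926276): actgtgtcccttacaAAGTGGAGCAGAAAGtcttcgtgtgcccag
Adgrl2 exon 4 (chr3:148860427-148860438): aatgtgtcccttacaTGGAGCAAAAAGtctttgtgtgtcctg
Adgrl3 exon 6 (chr5:81509724-81509738): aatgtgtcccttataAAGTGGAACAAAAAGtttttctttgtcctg
The exon has 15 bases in Adgrl1 and Adgrl3, which differ at 2 of them, and 12 bases in Adgrl2.

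Adgrl1 mostly skipped this exon and Adgrl2 and Adgrl3 mostly held it. Inclusion in Adgrl1 was 18.1% in replicate 1 and 18.3% in replicate 2. In Adgrl2 it was 73.8% in replicate 1 and 83.3% in replicate 2, and in Adgrl3 75.0% and 72.1%. The Adgrl2 values rest in part on models not resolved between the libraries. Adgrl2-202, which skips the exon, had 0 counts in replicate 2, and Adgrl2-204, which holds it, had 0 in replicate 1. The libraries of Adgrl1 did not overlap those of the other latrophilins, and those of Adgrl2 and Adgrl3 overlapped on all transcripts. On protein-coding transcripts alone inclusion in Adgrl3 was 100% in each library, since Adgrl3-201, the only coding model that skips the exon, was listed at 0 TPM. Every Adgrl2 model that holds or skips the exon is protein-coding, so the Adgrl2 values could not change under this limit. The FASTQ-based table kept Adgrl1 lowest at 26.8% and 28.1% in replicates 1 and 2, against 62.0% and 59.3% in Adgrl2 and 75.9% and 79.3% in Adgrl3. These percentages come from whole transcript models and not from reads across the junctions. Adgrl1-207, which skips the exon, is 8181 bases long. Adgrl1-210, the most abundant coding model that holds it by alignment, is 5734 bases long and stood at 15.46 TPM in replicate 1 and 15.53 TPM in replicate 2. Adgrl1-201, of 5643 bases, also holds it, and the part of these differences in length in the assignment was not tested. Adgrl1-201 held 3.60% and 4.89% of Adgrl1 TPM in replicates 1 and 2 by alignment and 13.1% in each library by the FASTQ-based table.

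The second set is the exon among the epidermal growth factor-like repeats of the teneurins, the upstream one of the known alternative sites of Tenm3. Capitals again mark the exon.
Tenm1 exon 13 (chrX:42727337-42727360): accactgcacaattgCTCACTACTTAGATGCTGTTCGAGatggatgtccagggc
Tenm3 exon 12 (chr8:48313238-48313264): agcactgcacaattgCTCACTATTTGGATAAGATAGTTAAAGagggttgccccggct
Tenm4 exon 16 (chr7:96805105-96805131): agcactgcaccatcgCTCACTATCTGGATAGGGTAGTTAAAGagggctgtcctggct
The exons of Tenm3 and Tenm4 differ at 3 of 27 bases, and that of Tenm1 is 24 bases long with no annotated skipping transcript. Inclusion in Tenm3 was 91.9% in replicate 1 and 91.8% in replicate 2, and in Tenm4 83.6% and 83.1%. The FASTQ-based table gave 86.2% ± 0.973 in Tenm3 and 79.0% ± 1.05 in Tenm4 (SD, n = 2). This gap was smaller under other measures. On protein-coding transcripts alone inclusion was 91.9% in Tenm3 and 90.2% in Tenm4 on average, and by expected counts it was 92.1% in Tenm3 and 90.9% in Tenm4. The Tenm3 models that hold or skip the exon are all protein-coding, so only the Tenm4 value could change under the first limit.

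The third set is the exon in the beta-propeller of the teneurins, where the inserted residues are known to change adhesion between teneurins and, for Tenm2, binding to latrophilins on other cells.
Tenm1 exon 21 (chrX:42648394-42648414): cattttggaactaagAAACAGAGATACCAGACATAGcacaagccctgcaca
Tenm2 exon 22 (chr11:36054926-36054946): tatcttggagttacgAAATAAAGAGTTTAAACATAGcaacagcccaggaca
Tenm3 exon 20 (chr8:48287133-48287153): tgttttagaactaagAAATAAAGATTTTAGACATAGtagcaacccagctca
Tenm4 exon 24 (chr7:96854717-96854737): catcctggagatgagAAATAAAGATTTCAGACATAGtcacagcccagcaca
It has 21 bases in all 4 genes, with 1 difference between Tenm3 and Tenm4 and 7 between Tenm1 and Tenm2. All 3 annotated coding transcripts of Tenm2 hold it, so its inclusion there could not be measured from these tables. Inclusion was 97.5% in replicate 1 and 100% in replicate 2 for Tenm1, 91.3% and 91.8% for Tenm3, and 90.7% and 89.8% for Tenm4. The form with the insert was thus the main one in each of the 3 genes that could be measured. The FASTQ-based table gave lower inclusion in Tenm3, at 80.8% and 78.8%, and 88.3% and 87.2% in Tenm4.

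A 39-base exon further along the latrophilins had no skipping transcript in Adgrl1. It was held at 79.5% in replicate 1 and 78.8% in replicate 2 in Adgrl2 and at 69.9% and 68.3% in Adgrl3. The FASTQ-based table turned that order round, with 67.1% and 60.9% in Adgrl2 and 85.4% and 87.4% in Adgrl3, so which of these 2 genes held the exon more often could not be set. A 27-base exon is found in both genes with 6 differences. It is shown because its use differed between these paralogues in both tables, a choice made with the values in view, so the difference is a description.
Adgrl2 exon 19 (chr3:148827212-148827238): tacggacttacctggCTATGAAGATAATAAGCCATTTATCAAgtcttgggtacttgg
Adgrl3 exon 21 (chr5:81757986-81758012): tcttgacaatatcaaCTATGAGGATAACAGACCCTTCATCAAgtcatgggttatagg
Inclusion in Adgrl2 was 15.5% in replicate 1 and 10.2% in replicate 2, against 47.3% and 39.9% in Adgrl3. The FASTQ-based values were 13.4% and 11.1% in Adgrl2 and 55.8% and 50.2% in Adgrl3, and the libraries of the genes did not overlap in either table. On protein-coding transcripts alone the mean was 12.8% in Adgrl2 and 33.8% in Adgrl3. The Adgrl2 value could not change, since its models that hold or skip the exon are all protein-coding. Adgrl2 also has a 45-base exon, exon 18, whose flanks match those of this Adgrl3 exon at 66.7% of bases, against 46.7% for exon 19. In Adgrl2-208, the transcript read for exon 19, the upstream flank is the end of exon 18. The flank values therefore do not rank the Adgrl2 exons by their match to Adgrl3. Inclusion of exon 18 was 34.6% in replicate 1 and 38.9% in replicate 2 by alignment, and 32.4% and 40.7% by the FASTQ-based table.

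Over all 17 measurable exons, 14 differed by less than 5 percentage points between replicate 1 and replicate 2 by alignment, and 14 did so in the FASTQ-based table. Both tables placed 16 of the 17 on the same side of 50%, the exception being exon 21 of Adgrl3 at 43.6% ± 5.19 by alignment and 53.0% ± 4.0 by the FASTQ-based table (SD, n = 2). The alignment-based and FASTQ-based means of 13 of the 17 exons differed by less than 10 points, and the largest difference was 17.9 points, for exon 4 of Adgrl2.

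**Figure D3:**
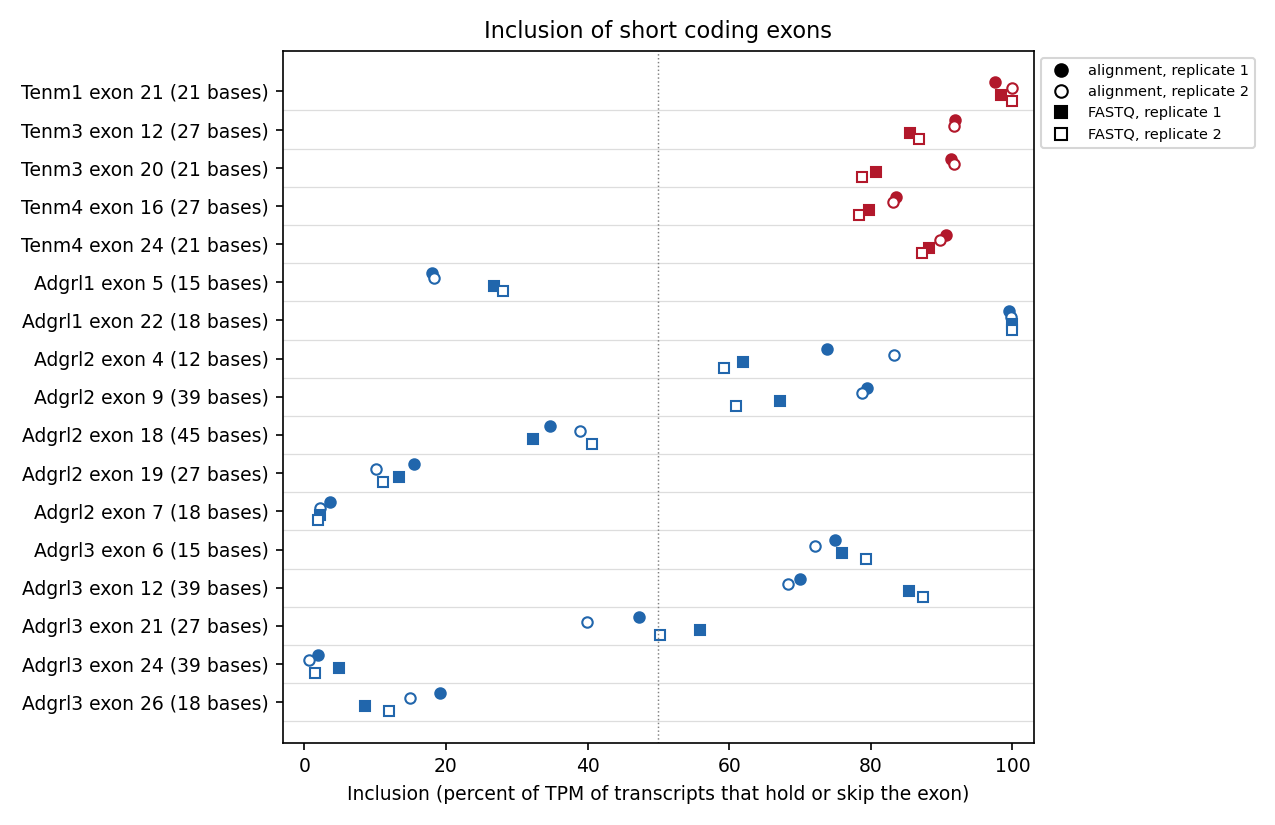
Inclusion of the 17 short coding exons that some annotated transcript skips, in percent of TPM; circles are alignment-based and squares FASTQ-based, filled for replicate 1 and open for replicate 2. Teneurin exons lie between 78.3% and 100%, and exon 5 of Adgrl1 lies left of exon 4 of Adgrl2 and exon 6 of Adgrl3 in each table.

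Tenm1, Tenm2 and Tenm3 were higher in replicate 1 than in replicate 2, by small amounts. The test was a two-sided exact binomial test of reads with Benjamini-Hochberg adjustment over the 12881 genes that averaged 100 counts or more, and it compares these libraries and not conditions. Tenm3 had 8553 expected counts in replicate 1 and 7047 in replicate 2, a log2 ratio of replicate 1 over replicate 2 of 0.17 after scaling, with an exact 95% counting interval of 0.12 to 0.21 and adjusted p = 4.7e-11. Tenm2 had 10947 counts in replicate 1 and 9317 in replicate 2, a log2 ratio of 0.12 with an interval of 0.08 to 0.16 and adjusted p = 1.8e-07 by the exact test. Tenm1 had 4328 counts in replicate 1 and 3554 in replicate 2, a log2 ratio of 0.17 with an interval of 0.11 to 0.24 and adjusted p = 5.3e-06 by the exact test. Differences of this size were common, since 17.4% of tested genes differed by at least as much as Tenm1, 18.2% by as much as Tenm3 and 29.5% by as much as Tenm2.

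None of the 10 members was called at an adjusted p under 0.05 with at least a 2-fold ratio, against 0.303% of all tested genes. At adjusted p alone 3 of 10 passed, against 11.8% of all tested genes and 17.5% of the 5675 that averaged 1000 counts or more, as every member did. All 3 were higher in replicate 1, a direction that 5.49% of tested genes passed in. The median log2 ratio was 0.05 over the members and 0.00 over all tested genes. Tenm4 had 8787 counts in replicate 1 and 7922 in replicate 2, a log2 ratio of 0.04 with an interval of -0.01 to 0.08. Adgrl1 had 26469 counts in replicate 1 and 24634 in replicate 2, the deepest member, with an interval of -0.03 to 0.02. Adgrl2 and Adgrl3 had intervals of -0.07 to 0.08 and -0.05 to 0.05, and the FLRT genes had intervals within -0.09 to 0.18. The 7 members from Tenm4 to Flrt3 did not pass the test, with adjusted p between 0.34 and 0.97 by the exact test.

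Other values moved between the libraries beside the 3 teneurins. Among the 444 tested X-linked genes other than Xist and Tsix, 85 (19.1%) were higher and 45 lower in replicate 1 at adjusted p alone. Over all tested genes 5.49% were higher and 6.28% lower at the same limit. The median log2 ratio of these X-linked genes was 0.03, and Tenm1 is X-linked. Myelin genes summed to 155.6 TPM in replicate 1 and 280.8 TPM in replicate 2, with 4 of the 4 tested lower in replicate 1 (Mog was not tested). Choroid plexus markers summed to 4.65 and 13.7 TPM, with Folr1 at 0.59 and 4.97 TPM and Aqp1 at 0.22 and 1.98 TPM. Folr1 and Aqp1 were not tested, and of the tested markers Sostdc1 was lower in replicate 1 at adjusted p alone and Kl did not pass. Astrocyte markers summed to 894.5 TPM in replicate 1 and 989.3 TPM in replicate 2. Of these, 3 of 4 were lower in replicate 1 at adjusted p alone. Dentate markers summed to 67.5 and 74.7 TPM, and 2 of 4 were lower at that limit. All 3 microglial and 2 of 3 endothelial markers were lower in replicate 1 at adjusted p alone. Markers of oligodendrocyte precursors were higher there in 2 of 3. The rest of the tested genes in these lists had log2 ratios below 0 without passing: Aldh1l1 -0.03, Prox1 -0.06, Dsp -0.21, Cldn5 -0.003, Olig1 -0.06 and Kl -0.24. In the other lists, Wfs1 of CA1 and Nptx1 of CA2 and CA3 were lower in replicate 1 at adjusted p alone. Col1a1 of the meninges was higher there, and no tested interneuron marker passed. The part of these X-linked and marker gene differences in the teneurin difference was not tested.

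**Figure D4:**
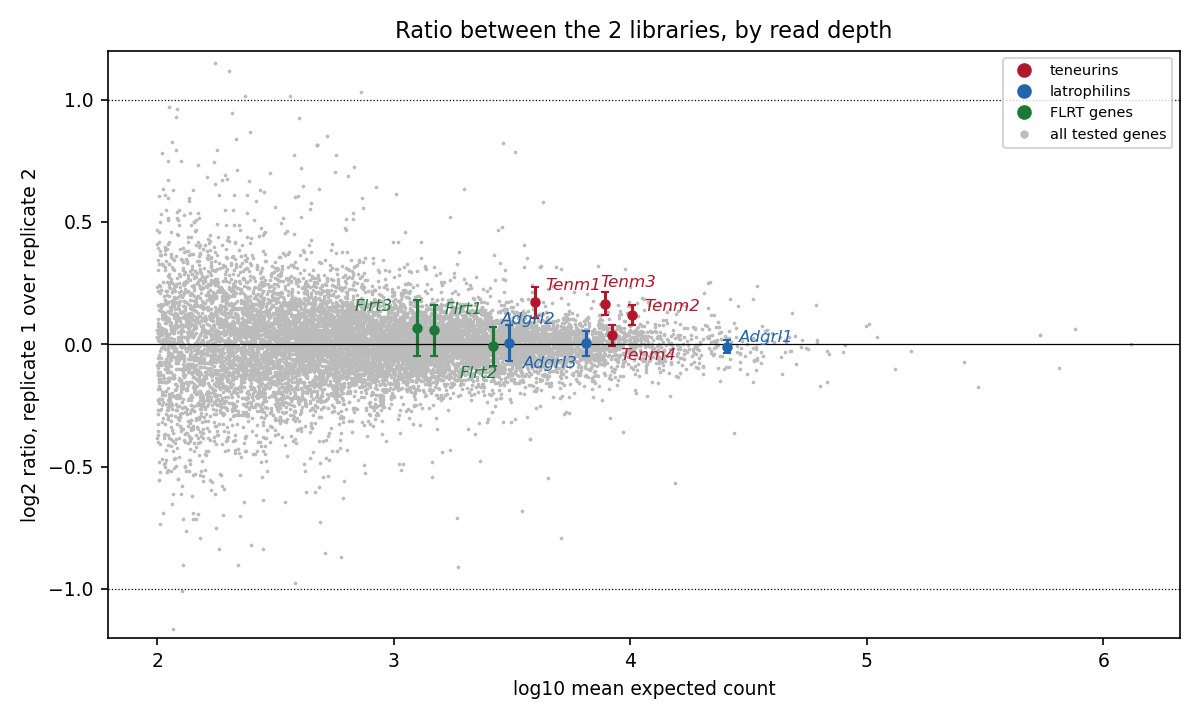
The log2 ratio of replicate 1 over replicate 2 against the log10 mean expected count, for all tested genes (grey; 32 lie outside the plotted range) and the 10 members with exact 95% counting intervals; dotted lines mark a 2-fold ratio. All members lie near 0, and Tenm1, Tenm2 and Tenm3 lie above it at 0.12 to 0.17.

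The known partners of these families, a list of 21 genes, were all detected and tested. At adjusted p alone 5 were higher and 4 lower in replicate 1, against 5.49% and 6.28% of all tested genes in each direction, and none reached 2-fold. Most partner genes averaged 1000 counts or more, and 17.5% of all tested genes of that depth passed in either direction. Among the receptors of FLRT proteins, Unc5a was the highest at 41.6 TPM in replicate 1 and 41.93 TPM in replicate 2. Unc5c stood at 16.88 and 15.87 TPM and Unc5d at 12.67 and 10.86 TPM. Unc5b was the lowest, at 3.75 TPM in replicate 1 and 5.28 TPM in replicate 2. Unc5d was higher in replicate 1 (log2 ratio 0.26) and Unc5b lower (-0.47), with adjusted p = 4.5e-06 and 3.4e-06 by the exact test. Flrt2 and its receptor Unc5d thus stood at 22.2 ± 0.0919 and 11.8 ± 1.28 TPM (SD, n = 2).

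Nrxn2 and Nrxn3 encode presynaptic neurexins. Nrxn2 stood above every member in level and Nrxn3 stood between Tenm2 and Tenm4. Nrxn2 stood at 309.7 TPM in replicate 1 and 293.31 TPM in replicate 2, and Nrxn3 at 68.59 and 69.56 TPM. Nrxn2 was higher in replicate 1 by a log2 ratio of 0.07, with adjusted p = 5.3e-06 by the exact test. Gpc3, an X-linked heparan sulphate proteoglycan that binds Unc5 receptors, stood at 6.22 TPM in replicate 1 and 3.46 TPM in replicate 2, a log2 ratio of 0.84 with adjusted p = 2.1e-07 by the exact test. It had the largest ratio in the list. The dystroglycan gene Dag1, the contactin gene Cntn6, the FGF receptor genes Fgfr1 and Fgfr2 and Nrxn3 did not pass the test, with log2 ratios of -0.11 to 0.03.

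Inside the cell, latrophilins bind Shank scaffolds and couple to heterotrimeric G proteins. Shank1, Shank2 and Shank3 stood at 213.51, 51.84 and 101.04 TPM in replicate 1 and at 218.87, 54.97 and 102.66 TPM in replicate 2. All 3 were lower in replicate 1, by log2 ratios of -0.07, -0.11 and -0.12, with adjusted p from 8.0e-08 to 4.8e-05 by the exact test. Among the G protein alpha subunits, Gnas was the highest at 817.97 TPM in replicate 1 and 805.52 TPM in replicate 2. Gna13, an alpha subunit that acts downstream of adhesion receptors, stood at 26.39 and 25.22 TPM and was higher in replicate 1 (log2 ratio 0.17, adjusted p = 8.7e-04 by the exact test). Gnas, Gna12, Gnaq and Gnai1 did not pass. Adgrl4, an endothelial receptor named with the latrophilins that is not a teneurin receptor, stood at 11.35 TPM in replicate 1 and 10.09 TPM in replicate 2, below all 3 latrophilins.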

How the data were processed

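Total RNA-seq was read in 2 libraries of 1 group. The authors deposited expected counts and TPM per gene and per transcript from aligned reads, with a deposited posterior standard deviation of each transcript count, and estimated counts and TPM per transcript from unaligned reads. The build mm10 and GENCODE M21 are per the labels; the sources used here name no program. The effective length was the length minus 99 bases in the alignment-based table and minus 352 or 356 bases in the FASTQ-based one. The bounds of the TPM signal that the authors deposited per transcript were not used.

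Computed here: FASTQ-based values were summed per gene. Expected counts were rounded, scaled by TMM (edgeR 4.0.16; DESeq2 1.42.0 for its size factors as an alternative) and compared by an exact binomial test (scipy 1.17.1) with a prior count of 0.5 for ratios. With 1 group there was no contrast for an edgeR quasi-likelihood fit. The test was checked on simulated counts that held counting error only, so that check did not cover other spread between libraries. Rows that name no gene (97 spike-in rows, 0.358% and 0.359% of counts, and 26248 numbered rows, 2.81e-05% and 2.00e-05%) entered neither the scaling nor the tests. Intervals cover counting error only. Exons were called paralogous where flanks of 30 bases were identical at 60% of bases or more. Exons of equal length that were themselves identical at 60% or more were listed as pairs but not called paralogous on that ground. The 27-base exons of Adgrl2 and Adgrl3 were such a listed pair, with 77.8% in the exon and 46.7% in the flanks. The text names all members, transcripts at 10% of a gene or more, the partner genes and overlapping genes (by count alone where under 10 counts); any other transcript, exon or marker was picked with its values in view. For 1 partner gene, counted in the totals of its list, no values are reported here. Members and lists were chosen with earlier results of these data known. The labels number the libraries as biological replicates of different pooled animals with the same donor identifier.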

Additional observations from a re-analysis of the deposited data

How the results depend on the processing

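The count of members passing at adjusted p alone was 3 under the main setting and under median-of-ratios scaling, total-count scaling, a mean count of at least 10, no filter above 0 counts and FASTQ-based counts, and the count reaching 2-fold was 0 under each. Partner genes passing numbered 9 or 10. Family totals for teneurins, latrophilins and FLRT genes were 283.9, 414.8 and 71.5 TPM by the FASTQ-based table and 463.5, 643.8 and 109.0 TPM when TPM was rescaled to nuclear protein-coding genes. On protein-coding transcripts only they were 162.1 TPM for teneurins and 224.2 TPM for latrophilins. The log2 ratio of Tenm2 over Tenm4 was 0.069 by FASTQ-based TPM, 0.49 with a pseudocount of 1 TPM, 0.28 by expected counts, -0.15 on protein-coding transcripts and 0.63 on long coding transcripts. That of Tenm2 over Tenm3 was -0.083 by FASTQ-based TPM, 0.38 by expected counts, -0.17 on protein-coding transcripts and 0.15 on long coding transcripts. That of Adgrl1 over Adgrl3 was 1.09 by FASTQ-based TPM, 1.98 by expected counts, 2.20 on protein-coding transcripts and 2.45 on long coding transcripts. That of Flrt2 over Flrt3 was 1.07 by expected counts. Under other tables or measures, 4 values of single transcript shares stayed within 1 SD between libraries and 46 moved further, and for exon inclusions 22 stayed and 29 moved. Leaving out 1 of 2 libraries is not in these counts, since it moves a mean by a fixed part of its SD. Some values counted as staying could not move. Flrt1 has a single annotated transcript, so its share is fixed under any measure. Some exons of Tenm1, Tenm3, Tenm4 and Adgrl2 have only protein-coding models, so a limit to protein-coding transcripts could not change their inclusion. The counts of values that stayed therefore include values that were not open to change. Alternatives on protein-coding transcripts for the ratios, on long coding transcripts, exons, partners and Tenm2 over Tenm3 were chosen after seeing the data. The cause of these shifts was not tested.

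Without replicate 1 and without replicate 2 the teneurin, latrophilin and FLRT totals were 207.95 and 220.01, 295.8 and 298.6, and 49.59 and 51.01 TPM. The log2 ratios in the same order were 0.494 and 0.492 (Tenm2 over Tenm4), 0.744 and 0.589 (Tenm2 over Tenm3), 1.00 and 0.965 (Adgrl1 over Adgrl3) and 0.539 and 0.439 (Flrt2 over Flrt3). Members led by a transcript of at least 50% numbered 7 and 6. No paired analysis was possible because there was only 1 group. With 2 libraries no test of spread within the group could be made.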
